A study of Mus musculus with 6 samples.

Results

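The transcription factor families described here are the genes of the deposited expression table that belong, by symbol, to the families that set myeloid and other developmental cell fates. Members were chosen by the start of the gene symbol (Cebp, Klf, Egr, Elf, Etv, Ets, Gata, Runx, Hox, Mef2, Tfe, Tcf, Sox, Fox, Bhlhe, Nr, Rar, Rxr, Ppar, Maf, Batf, Atf and Zeb) with Spi1, Gfi1, Mitf and Myb added by name, and 90 of the 8191 genes in the table matched. Of these, 8 are caught by their prefix only (Atf7ip, Cebpzos, Foxred1, Gatad2a, Gatad2b, Nr2c2ap, Ppargc1b and Tcf20), which leaves 82 transcription factor genes. The largest groups were the nuclear receptors with 15 genes, the forkhead (FOX) factors with 14, the Krüppel-like factors (KLF) with 9 and the ETS factors with 7. Gfi1, Myb and Klf4 were not analysed here.

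RNA-seq was done on myeloid-derived suppressor cells (MDSCs), immature myeloid cells that restrain T cells, from spleen, the source being aged mice of 3 genotypes (WT, Tnfr1-/- and Tnfr2-/-). Each genotype had 2 samples. The knockouts were on a BALB/c background and lack one or the other receptor for tumour necrosis factor, the old mice were 18 to 24 months of age, and the cells of 5 mice were pooled for each of 2 experiments. The cells were neither cultured nor treated, so the groups differ by genotype only as far as the labels go. By the study's methods, BALB/c mice were bought from a supplier, while both knockout lines were made in the authors' laboratory. If the WT mice were the bought ones, origin of the animals and genotype cannot be told apart in comparisons with WT. The labels speak of cell sorting and the study's methods of a MDSC isolation kit with a purity check by flow cytometry. The study's text gives no purity value for the sequenced pools, and cell type markers are given below. MDSC is used here as the labels' name for the cells.

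Values are FPKM, sequenced fragments scaled to transcript length and to library size, and differences are in log2(FPKM + 1). The table lists only genes with a one-way ANOVA p-value under 0.05 over the 3 genotypes, so every member had already been picked for a difference between genotypes. Here "all genes" means these listed genes, and the p-values and calls below come from the same samples that picked them. The listed FPKM summed to 344714 and 346870 in the WT samples, against 133604 to 155248 in the 4 knockout samples. WT values carried up to 10 digits and knockout values up to 7. Of 827 low WT genes, 143 had the same ratio between the WT samples (0.9985 within 0.0002). That ratio was not looked for in the knockouts, so it does not set WT apart. Because the digits differ, how the values were made and genotype cannot be told apart in any comparison with WT. The depth of the libraries is not known from these values. Tnfrsf1b, the gene of TNFR2, had 111.8 and 115 FPKM in WT, 47.8 and 69.6 FPKM in Tnfr1-/- and 11.3 and 14.3 FPKM in Tnfr2-/- MDSCs.

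The cell type markers differed between the groups as well. Of 7 MDSC markers only Ptprc and Ly6c1 are in the table, and Ly6c1 had 0.159 and 0.0638 FPKM in WT against 95.8 to 178 FPKM in the knockout samples. The 10 monocyte and macrophage markers summed to 3622 and 3749 FPKM in WT, to 276 and 329 FPKM in Tnfr1-/- and to 406 and 437 FPKM in Tnfr2-/- MDSCs, and all 10 were called lower in each knockout (8 in Tnfr2-/- and 7 in Tnfr1-/- after scaling by median-ratio size factors). Of all genes, 57.1% were called lower in Tnfr2-/- and 60.7% in Tnfr1-/-, and 21% and 22.1% after scaling. The 3 of 12 neutrophil markers in the table summed to 15.4 and 13.7 FPKM in WT and to 1522 to 3070 FPKM in the knockouts. The 4 of 6 B cell markers summed to 46.5 and 46.9 FPKM in WT, to 318 and 382 FPKM in Tnfr1-/- and to 167 and 299 FPKM in Tnfr2-/- MDSCs. In bulk samples, fewer cells of a type and less RNA per cell cannot be told apart, and the part of cell makeup in the results that follow was not tested.

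**Figure D1:**
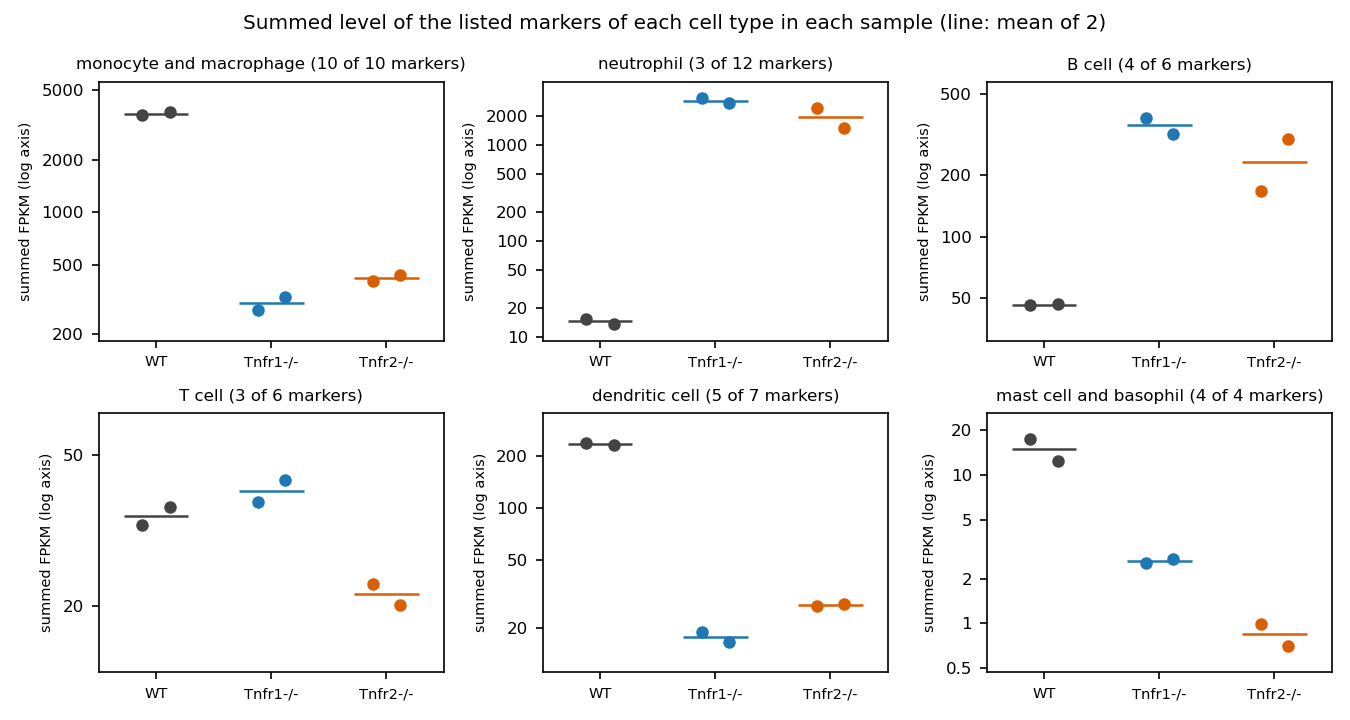
Summed FPKM (log axis) of the markers of 6 cell types in each of the 6 samples; points are samples, lines the mean of 2, and titles give how many markers of each list are in the table. Macrophage markers lie at 3622 and 3749 FPKM in WT and between 276 and 437 FPKM in the knockouts, and neutrophil markers at 13.7 and 15.4 FPKM in WT and between 1522 and 3070 FPKM in the knockouts.

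Transcription factors bind short DNA motifs and recruit cofactors that raise or lower transcription. In the myeloid lineage PU.1 (Spi1) and the C/EBP factors act early and commit progenitors to granulocytes and monocytes. MAF factors, EGR2, and the lipid-sensing nuclear receptors PPARγ and LXRα (Nr1h3) then shape macrophages, and MITF, TFE3, TFEB and TFEC drive lysosomal genes. KLF2, ETS1, TCF7 and FOXO1 are known from quiescent and naive lymphocytes, and MEF2C from both B cells and myeloid progenitors.

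Promoter windows are given for the 2 members that rose most and the 2 that fell most in Tnfr2-/- against WT MDSCs. The FPKM values are per gene, so which start site was used in these cells is not known. Each window holds 250 bases before and 50 after the first RefSeq start site listed (GRCm38.p6, plus strand): chr8:72318812-72319111 for Klf2, chr13:83503784-83504083 for Mef2c, chr10:67535249-67535548 for Egr2 and chr6:115360894-115361193 for Pparg. Mef2c and Pparg have 3 windows each, Egr2 has 5 and Klf2 has 1. Capitals mark matches to the motifs searched.
Klf2: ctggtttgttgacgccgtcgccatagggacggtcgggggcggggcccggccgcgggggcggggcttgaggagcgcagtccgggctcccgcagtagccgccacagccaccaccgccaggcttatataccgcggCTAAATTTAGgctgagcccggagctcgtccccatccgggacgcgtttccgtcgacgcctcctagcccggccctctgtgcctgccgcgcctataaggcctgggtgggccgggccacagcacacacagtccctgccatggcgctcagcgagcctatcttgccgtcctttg
Mef2c: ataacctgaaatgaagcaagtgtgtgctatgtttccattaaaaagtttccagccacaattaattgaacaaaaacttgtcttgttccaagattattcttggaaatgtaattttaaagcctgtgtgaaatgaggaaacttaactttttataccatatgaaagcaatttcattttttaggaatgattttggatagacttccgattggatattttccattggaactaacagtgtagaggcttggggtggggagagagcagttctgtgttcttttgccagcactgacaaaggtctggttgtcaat
Egr2: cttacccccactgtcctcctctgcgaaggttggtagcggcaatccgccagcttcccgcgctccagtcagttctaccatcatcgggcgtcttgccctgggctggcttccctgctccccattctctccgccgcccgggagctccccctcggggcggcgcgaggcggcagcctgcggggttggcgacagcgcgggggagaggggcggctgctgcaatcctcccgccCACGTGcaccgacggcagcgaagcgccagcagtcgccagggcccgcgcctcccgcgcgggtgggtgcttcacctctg
Pparg: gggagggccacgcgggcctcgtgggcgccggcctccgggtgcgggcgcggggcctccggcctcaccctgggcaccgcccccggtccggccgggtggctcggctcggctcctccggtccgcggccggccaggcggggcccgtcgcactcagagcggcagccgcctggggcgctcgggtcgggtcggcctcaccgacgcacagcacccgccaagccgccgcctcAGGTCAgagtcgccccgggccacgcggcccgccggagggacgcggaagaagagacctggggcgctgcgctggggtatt

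The Klf2 window held CTAAATTTAG, a match to a MEF2 pattern (CTA and TAG with any 4 bases between them), starting 118 bases before the start site (position -118). This wider pattern was added after the windows had been read, and the narrower MEF2 consensus searched at first, which lies within it, was in 0 of the 71 members with a window and in 0.163% of all 27025 genes. The Egr2 window held the E-box CACGTG at -27, the Pparg window held the nuclear receptor motif AGGTCA at -28, and the Mef2c window held no match. The other motifs searched, on both strands, were GAGGAAGT (PU.1), CCGGAAGT (ETS), TTGCGCAA (C/EBP), GCGTGGGCG (EGR), CCACACCC (KLF), TGTGGT (RUNX), GTAAACA (FOX) and TGACGTCA (ATF). Of the 71 members, 2.82% held the wider MEF2 pattern, 14.1% CACGTG and 14.1% AGGTCA, against 3.7%, 7.24% and 16.0% of all genes. These shares are descriptions of letters in a window and say nothing about binding.

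In Tnfr2-/- against WT MDSCs, 29 of the 90 members (32.2%) were called higher and 38 (42.2%) lower, at a Benjamini-Hochberg adjusted p-value under 0.05 from limma and a fold change over 1.5. Over all 8191 genes 13.6% were called higher and 57.1% lower. The members ran from -4.95 (Egr2) to 4.70 (Klf2) on the log2 scale, with a median of -0.23 against -0.74 for all genes. In Tnfr1-/- against WT MDSCs, 29 members were called higher and 42 (46.7%) lower, where all genes gave 14.1% and 60.7%. The median there was -0.21 against -0.83 for all genes. The samples of Tnfr2-/- lay wholly above WT in 38 members and wholly below in 51 (all genes 21.1% and 77.2%), and those of Tnfr1-/- in 38 and 50 (all genes 21.7% and 77.3%). With a pseudocount of 0.1, the members' medians were -0.55 in Tnfr2-/- and -0.77 in Tnfr1-/-, and over the 73 members with a mean of at least 1 FPKM they were -0.64 and -0.73. The medians of all genes above are on log2(FPKM + 1) over every gene, so they cannot be set beside these 4 values. How far low members account for the gap between -0.23 and -0.74 was not tested.

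**Figure D2:**
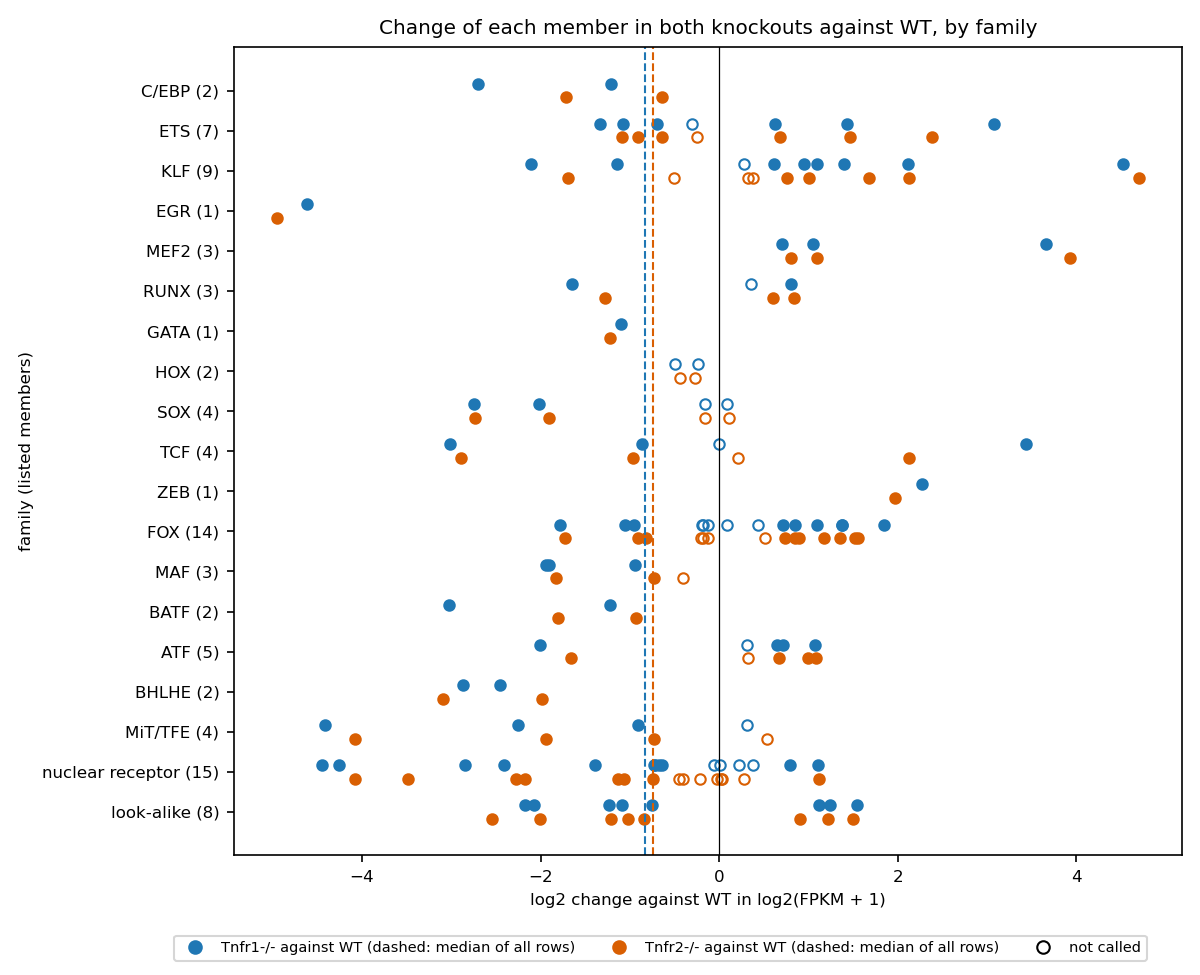
Log2 change of each member in log2(FPKM + 1) against WT, by family (number of listed members in brackets), in Tnfr1-/- (blue) and Tnfr2-/- (orange); filled points were called and dashed lines are the medians of all genes. MEF2 lies to the right of 0 in all 3 members, as does ZEB, and BATF, BHLHE, C/EBP, EGR, GATA, HOX and MAF lie to the left of 0. Some of these, Maf (-0.40) and Cebpb (-0.64) in Tnfr2-/- among them, lie to the right of the dashed line (-0.74).

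Because the listed FPKM summed to less in the knockouts, the same model was fitted after median-ratio scaling, which moved the median of all genes to -0.03 in both comparisons. The size factors came from the listed genes only, all picked for a difference between genotypes. Such scaling takes the typical gene as unchanged, which cannot be checked with these genes, so neither scale is known to be the right one. It gave 36 members higher and 20 lower in Tnfr2-/- (all genes 21.8% and 21%), and 36 higher and 21 lower in Tnfr1-/- (all genes 23.3% and 22.1%). All 29 members called higher as deposited were also called higher after scaling in each knockout. The size factors were 1.668 and 1.659 in WT and 0.7401 to 0.8809 in the knockouts, so scaling raised the changes against WT. A rise could therefore hardly lose its call, and being called higher on both scales is no check of a rise. Of the members called lower, 20 in Tnfr2-/- and 21 in Tnfr1-/- were called lower on both scales, while 18 and 21 were called lower as deposited only. The members' medians turned to 0.23 and 0.12. No member was called in opposite directions on the scales.

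**Figure D3:**
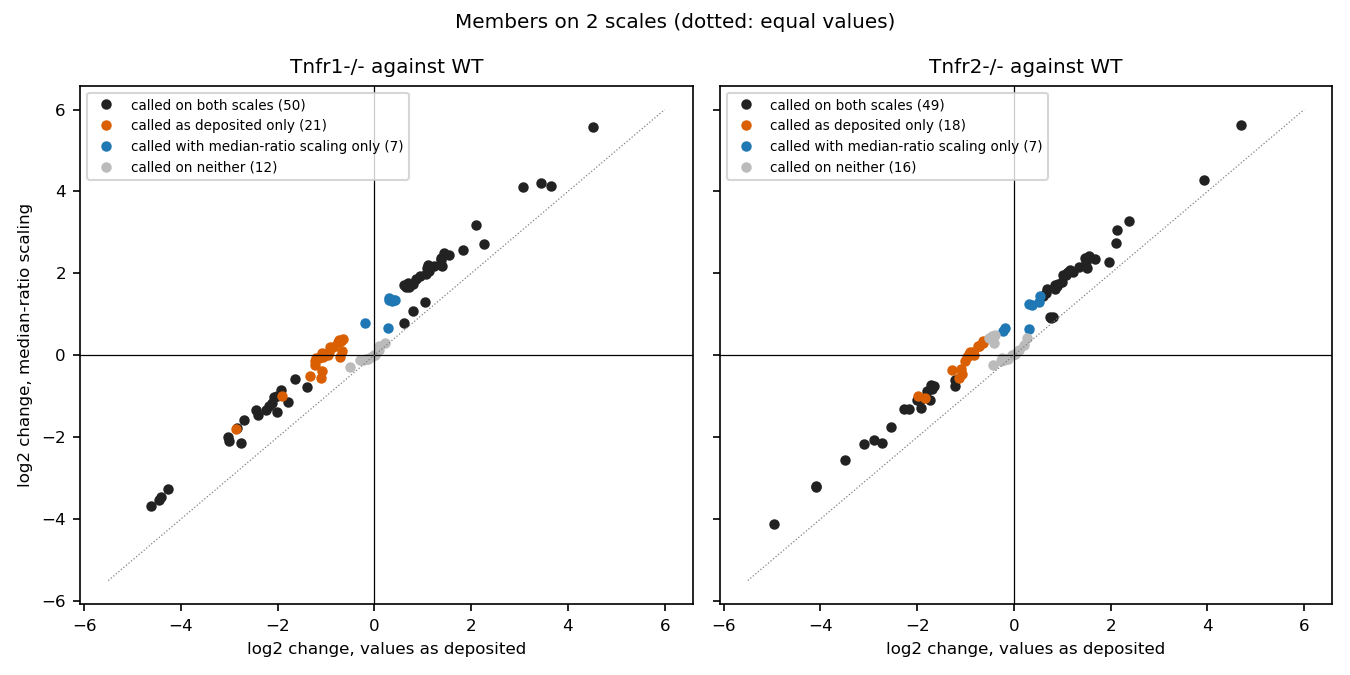
Log2 change of each member against WT with values as deposited (x axis) and after median-ratio scaling (y axis), for Tnfr1-/- (left) and Tnfr2-/- (right); colours give on which scale a member was called. Points lie on or above the dotted line of equal values, and 21 members on the left and 18 on the right were called as deposited only.

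Among the factors that commit progenitors to the myeloid lineage, Cebpa was lower in the knockouts on both scales, while the direction of Spi1 and Cebpb depended on the scale. Cebpa, needed for the step to granulocyte and monocyte progenitors (chromosome 7, 35119293 to 35121928, GRCm38), had 109.6 and 115 FPKM in WT, 15.3 and 17.5 FPKM in Tnfr1-/-, and 34.0 and 33.1 FPKM in Tnfr2-/- MDSCs. All 3 groups were apart. It fell by 1.71 (SE 0.09, limma adjusted p = 7.25e-05) in Tnfr2-/- and by 2.70 (SE 0.09, adjusted p = 1.94e-05) in Tnfr1-/-, and by 0.73 and 1.59 after median-ratio scaling. Spi1, which encodes PU.1 (chromosome 2, 91082390 to 91115756), had 299 and 284 FPKM in WT, 130.4 and 144 FPKM in Tnfr1-/-, and 163 and 146 FPKM in Tnfr2-/- MDSCs. Both knockouts lay below WT as deposited, at -0.91 (SE 0.11, adjusted p = 0.000879) and -1.08 (SE 0.11, adjusted p = 0.000442), and after scaling the values were 0.08 and 0.05 and were not called.

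Cebpb, the C/EBP factor of emergency granulopoiesis and macrophage activation, had 539 and 515 FPKM in WT, 189 and 275 FPKM in Tnfr1-/-, and 302 and 380 FPKM in Tnfr2-/- MDSCs. Its exons overlap Tmem189 on the opposite strand, and it is 1 of 27 members whose exons overlap a gene on the other strand. The change of -0.64 in Tnfr2-/- (SE 0.23, adjusted p = 0.0418) was not called when either WT sample or Tnfr2-/- replicate 1 was left out (-0.61, -0.67 and -0.47), and was 0.36 after scaling. In Tnfr1-/- it was -1.21 (SE 0.23, adjusted p = 0.0043), and -0.07 after scaling. Runx1, the RUNX factor of blood stem and myeloid cells, had 25.3 and 24.1 FPKM in WT, 7.07 and 7.32 FPKM in Tnfr1-/-, and 9.49 and 9.63 FPKM in Tnfr2-/- MDSCs. It was called lower in both knockouts as deposited (-1.65 and -1.28) and after scaling in Tnfr1-/- only (-0.59, and -0.35 in Tnfr2-/-).

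The other RUNX genes stood on the other side. Runx3, known from T cells and dendritic cells, had 4.31 and 4.21 FPKM in WT, 7.25 and 9.22 FPKM in Tnfr1-/-, and 8.42 and 8.35 FPKM in Tnfr2-/- MDSCs, and was called higher in both knockouts (0.80 and 0.84) on both scales. Runx2 had 5.59 and 6.05 FPKM in WT and 7.39 to 9.45 FPKM in the knockouts and was called higher in Tnfr2-/- on both scales (0.60) and in Tnfr1-/- after scaling only (0.36 as deposited, 1.33 scaled). Gata2, a factor of stem cells, mast cells and basophils, had 2.20 and 1.53 FPKM in WT and 0.191 to 0.369 FPKM in the knockouts. It was called lower in both as deposited (-1.22 in Tnfr2-/-, -1.10 in Tnfr1-/-) and after scaling in Tnfr2-/- only. The 4 mast cell and basophil markers, all in the table, summed to 17.5 and 12.5 FPKM in WT and to 0.701 to 2.73 FPKM in the knockouts beside it.

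Egr2, a zinc finger factor of macrophage and lymphocyte activation (chromosome 10, 67535475 to 67542188), had the largest fall of the members in log2(FPKM + 1) in both knockouts, while by the ratio of mean FPKM Pparg was lower still in Tnfr1-/- (44.2-fold against 42.8-fold for Egr2) and Sox7 was at or near 0 in both. It had 53.1 and 52.2 FPKM in WT, 0.796 and 1.66 FPKM in Tnfr1-/-, and 0.569 and 0.912 FPKM in Tnfr2-/- MDSCs. The WT samples were far above all 4 knockout samples, and the knockouts overlapped each other. The change was -4.95 (SE 0.22, limma adjusted p = 4.94e-05) in Tnfr2-/- and -4.62 (SE 0.22, adjusted p = 5.27e-05) in Tnfr1-/-, and -4.12 and -3.67 after scaling.

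Of the 7 listed MAF, BATF and BHLHE genes, 6 were called lower in Tnfr2-/- and 7 in Tnfr1-/- as deposited (all genes 57.1% and 60.7%), and 2 and 3 after scaling (all genes 21% and 22.1%). Maf, the large MAF factor c-MAF, had 13.3 and 12.9 FPKM in WT, 5.60 and 7.17 FPKM in Tnfr1-/-, and 9.51 and 9.85 FPKM in Tnfr2-/- MDSCs, and was called lower in Tnfr1-/- as deposited only. Maff, a small MAF partner, had 8.76 and 9.38 FPKM in WT and 0.530 to 4.25 FPKM in the knockouts, with the lowest and highest knockout values both in Tnfr2-/-.

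Batf3, required for cross-presenting dendritic cells, had 35.8 and 32.4 FPKM in WT, 4.15 and 2.63 FPKM in Tnfr1-/-, and 7.31 and 11.2 FPKM in Tnfr2-/- MDSCs. The groups were all apart, and it was called lower on both scales in both knockouts (-3.02 in Tnfr1-/-, -1.80 in Tnfr2-/-). Batf had 27.2 and 28.4 FPKM in WT and 10.4 to 15.6 FPKM in the knockouts, and its changes of -1.22 in Tnfr1-/- and -0.93 in Tnfr2-/- became -0.14 and 0.02 after scaling. Bhlhe40, a repressor linked to cytokine output and resident macrophages, had 103.5 and 98.0 FPKM in WT, 15.6 and 20.04 FPKM in Tnfr1-/-, and 16.3 and 37.5 FPKM in Tnfr2-/- MDSCs. Bhlhe41, its close relative, had 52.1 and 49.4 FPKM in WT, 5.48 and 6.73 FPKM in Tnfr1-/-, and 1.88 and 11.8 FPKM in Tnfr2-/- MDSCs. Bhlhe41 was called lower in both (-3.09, SE 0.70, in Tnfr2-/- and -2.87, SE 0.70, in Tnfr1-/-), but not without either WT sample, where the adjusted p in Tnfr2-/- was 0.0543 or 0.0514. After scaling Bhlhe41 was called lower in Tnfr2-/- only and Bhlhe40, called lower in both as deposited (-1.98 in Tnfr2-/-, -2.45 in Tnfr1-/-), in Tnfr1-/- only. Tnfr2-/- replicate 2 was the higher of its pair in Maff, Batf3, Bhlhe40 and Bhlhe41, and slightly so in Maf (9.85 against 9.51 FPKM). It was the lower in Batf (12.7 against 15.6 FPKM).

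Macrophage genes known as targets of PU.1 and MAF factors were in the table for 15 of 16, and 14 were called lower and 1 higher in each knockout, with a median of -3.85 in Tnfr2-/- and -4.06 in Tnfr1-/-. After scaling 12 and 11 were lower. All genes gave 57.1% and 60.7% lower as deposited, and 21% and 22.1% after scaling. Of the target genes, Cd36, a scavenger receptor, had 162.2 and 162.1 FPKM in WT and 1.85 to 6.34 FPKM in the knockouts. Cd14 was the one called higher, with 32.6 and 28.2 FPKM in WT and 46.2 to 61.8 FPKM in the knockouts. The list shares 8 of its genes with the macrophage markers above, whose part was not tested. Of 16 granulocyte targets of C/EBP and Gfi1 factors only 4 were in the table, with 2 higher and 1 lower in Tnfr2-/-, and 2 higher and 2 lower in Tnfr1-/- MDSCs. After scaling 2 were higher and 1 lower in each. All genes gave 13.6% and 14.1% higher as deposited, and 21.8% and 23.3% after scaling. The 2 higher genes, Csf3r and Mmp9, are also among the neutrophil markers above, whose part was not tested.

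**Figure D4:**
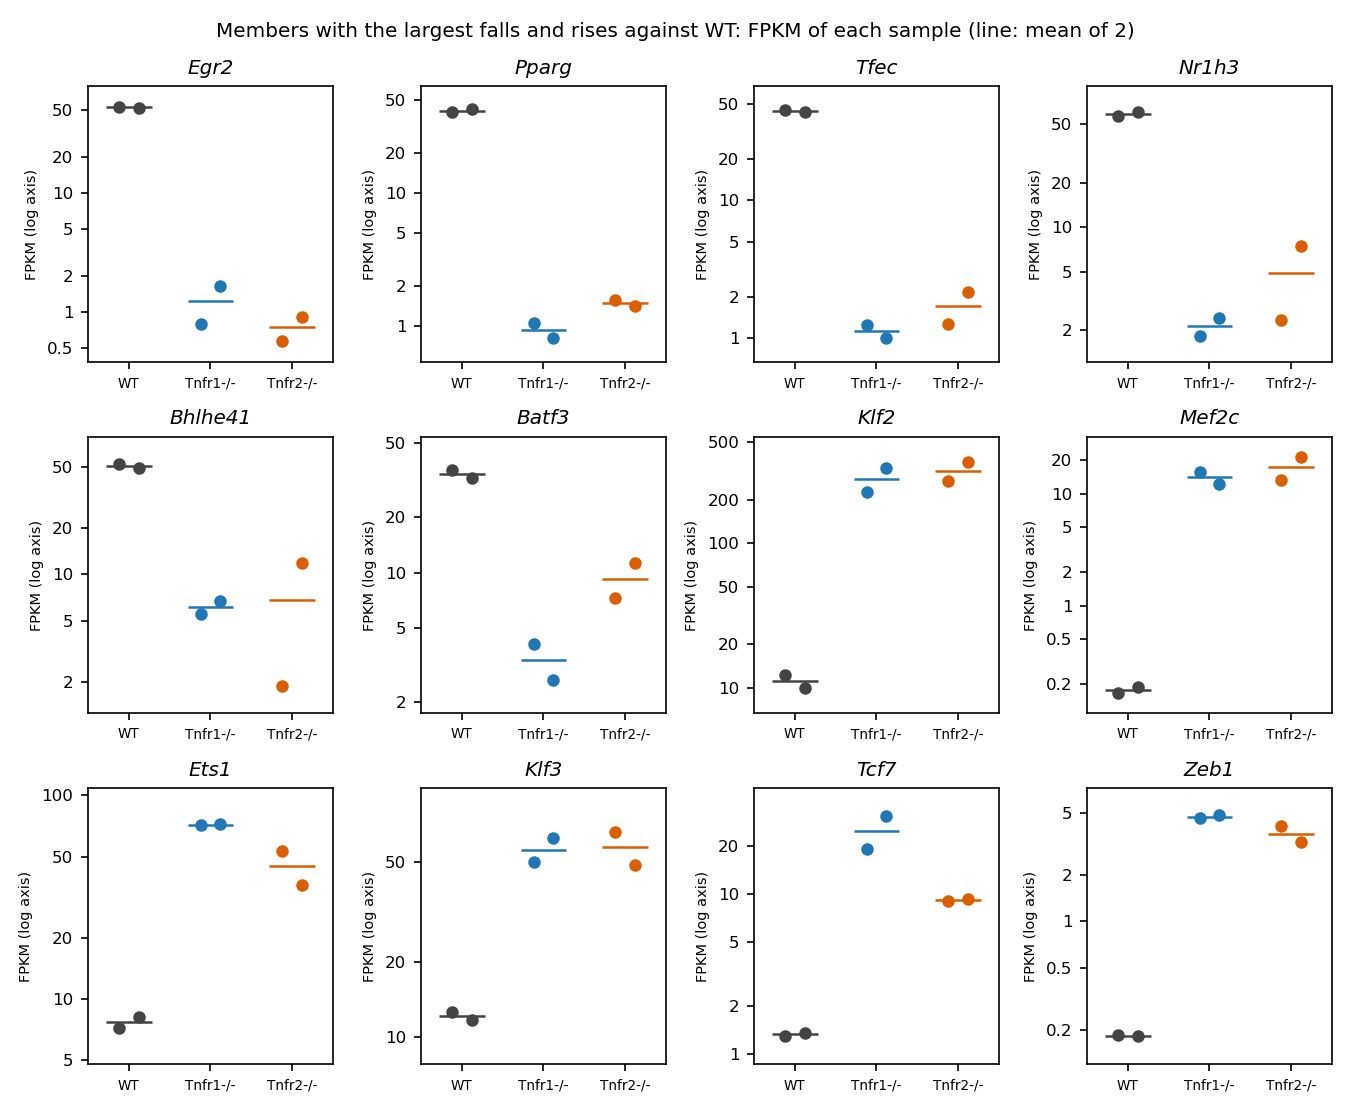
FPKM (log axis) in each sample of the members with the largest falls (Egr2, Pparg, Tfec, Nr1h3, Bhlhe41, Batf3) and rises (Klf2, Mef2c, Ets1, Klf3, Tcf7, Zeb1) against WT; points are samples and lines the mean of 2. Egr2 lies at 52.2 and 53.1 FPKM in WT and between 0.569 and 1.66 FPKM in the knockouts, and Klf2 at 10.01 and 12.2 FPKM in WT and between 226 and 363 FPKM in the knockouts.

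Of the 15 nuclear receptors, 7 were called lower and 1 higher in Tnfr2-/-, and 9 lower and 2 higher in Tnfr1-/- MDSCs. After scaling 4 and 5 were lower and 2 and 3 higher. All genes gave 57.1% and 60.7% lower and 13.6% and 14.1% higher as deposited. After scaling they gave 21% and 22.1% lower and 21.8% and 23.3% higher. Pparg, the fatty acid sensor of lipid-handling macrophages (chromosome 6, 115360951 to 115490399), had 40.2 and 42.1 FPKM in WT, 1.05 and 0.810 FPKM in Tnfr1-/-, and 1.56 and 1.41 FPKM in Tnfr2-/- MDSCs. The groups were apart, with Tnfr1-/- lowest, and the changes were -4.08 (SE 0.10, limma adjusted p = 1.25e-05) in Tnfr2-/- and -4.45 (SE 0.10, adjusted p = 9.58e-06) in Tnfr1-/-. Nr1h3, which encodes the oxysterol receptor LXRα (chromosome 2, 91184061 to 91202834), had 56.9 and 60.7 FPKM in WT, 1.83 and 2.42 FPKM in Tnfr1-/-, and 2.36 and 7.46 FPKM in Tnfr2-/- MDSCs. It fell by 3.49 (SE 0.44) and by 4.26 (SE 0.44), and its exons overlap those of Gm13783 on the same strand.

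Rxra, the shared partner of these receptors, had 52.4 and 54.7 FPKM in WT, 5.81 and 7.46 FPKM in Tnfr1-/-, and 10.4 and 10.1 FPKM in Tnfr2-/- MDSCs. It was called lower in both on both scales (-2.27 in Tnfr2-/- and -2.85 in Tnfr1-/-). Nr1h2, which encodes LXRβ, the other LXR, had 43.4 and 44.4 FPKM in WT and 24.8 to 27.4 FPKM in the knockouts. Its changes of -0.74 and -0.73 became 0.23 and 0.38 after scaling, short of the fold threshold. Ppard had 15.0 and 13.4 FPKM in WT and 7.997 to 10.3 FPKM in the knockouts, called lower in Tnfr1-/- as deposited (-0.64) and at 0.40 after scaling. Nr2f6 had 15.1 and 14.6 FPKM in WT and 1.82 to 2.73 FPKM in the knockouts, and was called lower on both scales.

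Nr3c1, the glucocorticoid receptor gene, went the other way, with 10.3 and 10.2 FPKM in WT, 22.6 and 24.2 FPKM in Tnfr1-/-, and 27.3 and 20.4 FPKM in Tnfr2-/- MDSCs. It was called higher in both (1.11 and 1.12). Nr1d1 and Nr1d2, which encode the clock repressors REV-ERBα and REV-ERBβ, did not move alike. Nr1d1 had 2.09 and 2.54 FPKM in WT, 0.785 and 1.26 FPKM in Tnfr1-/-, and 0.555 and 0.476 FPKM in Tnfr2-/- MDSCs, called lower as deposited only. Its exons overlap Thra on the opposite strand. Nr1d2 had 5.99 and 5.71 FPKM in WT, 7.44 and 8.37 FPKM in Tnfr1-/-, and 4.72 and 5.03 FPKM in Tnfr2-/- MDSCs, and was called against WT only after scaling, as higher. Ppara and Nr1h4 were listed at 0 in both WT samples and reached at most 0.0243 and 0.201 FPKM.

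Of 18 target genes of the lipid-sensing receptors, 16 were in the table, and all 16 were called lower in Tnfr2-/- (median -2.88) and 14 in Tnfr1-/- MDSCs (median -3.31). After scaling 13 were lower in each. All genes gave 57.1% and 60.7% lower as deposited, and 21% and 22.1% after scaling. Fabp5, a fatty acid carrier, had 1167 and 1114 FPKM in WT and 2.90 to 5.34 FPKM in the knockouts, and Fabp4 had 369 and 340 FPKM in WT and 0.732 to 1.73 FPKM in the knockouts. The macrophage markers moved with these genes, at 3622 and 3749 FPKM in WT against 276 to 437 FPKM in the knockouts, and their part was not tested.

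The MiT/TFE family, which drives lysosome and autophagy genes, did not move as one. Tfec, its macrophage-restricted member (chromosome 6, 16833373 to 16898441), had 44.9 and 43.6 FPKM in WT, 1.25 and 1.01 FPKM in Tnfr1-/-, and 1.27 and 2.15 FPKM in Tnfr2-/- MDSCs. It fell by 4.08 (SE 0.18, limma adjusted p = 4.8e-05) in Tnfr2-/- and by 4.41 (SE 0.18) in Tnfr1-/-. Mitf, named for melanocytes and also active in mast cells and osteoclasts, had 11.1 and 10.3 FPKM in WT and 1.27 to 2.12 FPKM in the knockouts, and was called lower on both scales. Tfe3 had 34.1 and 32.1 FPKM in WT and 17.1 to 20.3 FPKM in the knockouts, called lower as deposited and at 0.23 and 0.19 after scaling. Tfeb was higher in each knockout sample than in WT, with 10.3 and 10.2 FPKM in WT, 12.7 and 13.3 FPKM in Tnfr1-/-, and 15.1 and 15.7 FPKM in Tnfr2-/- MDSCs, and was called higher after scaling only.

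Of 18 lysosomal targets of this family, 16 were in the table, and all 16 were called lower in both knockouts, with medians of -2.32 in Tnfr2-/- and -2.53 in Tnfr1-/-. After scaling 13 were lower in each. All genes gave 57.1% and 60.7% lower as deposited, and 21% and 22.1% after scaling. Gpnmb, a glycoprotein of phagocytes, had 699 and 675 FPKM in WT and 0.0701 to 0.0891 FPKM in the knockouts, and Ctsd, the protease cathepsin D, had 7250 and 7829 FPKM in WT and 206 to 324 FPKM in the knockouts.

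The KLF and MEF2 families held the largest rises. Klf2, a factor of quiescence and cell trafficking (chromosome 8, 72319033 to 72321656), had 12.2 and 10.01 FPKM in WT, 226 and 335 FPKM in Tnfr1-/-, and 269 and 363 FPKM in Tnfr2-/- MDSCs. All 4 knockout samples were far above WT, and the knockouts overlapped. The changes were 4.70 (SE 0.25, limma adjusted p = 8.3e-05) in Tnfr2-/- and 4.52 (SE 0.25, adjusted p = 8.09e-05) in Tnfr1-/-. Mef2c, a MADS-box factor (chromosome 13, 83504034 to 83667080), had 0.165 and 0.190 FPKM in WT, 15.7 and 12.3 FPKM in Tnfr1-/-, and 13.3 and 21.4 FPKM in Tnfr2-/- MDSCs. Its changes were 3.93 (SE 0.24) in Tnfr2-/- and 3.66 (SE 0.24) in Tnfr1-/-.

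Mef2a and Mef2b were also called higher in both knockouts on both scales. The exons of Mef2b overlap Borcs8 on the same strand, and it is 1 of 7 members with an overlap of that kind. Mef2a had 14.0 and 13.5 FPKM in WT, 21.8 and 24.2 FPKM in Tnfr1-/-, and 27.3 and 33.9 FPKM in Tnfr2-/- MDSCs, and Mef2b had 0.0405 FPKM in one WT sample, was listed at 0 in the other and had 0.770 to 1.25 FPKM in the knockouts. Klf3, a repressor related to Klf2, had 12.6 and 11.7 FPKM in WT, 50.03 and 62.2 FPKM in Tnfr1-/-, and 65.9 and 48.8 FPKM in Tnfr2-/- MDSCs (2.11 and 2.13). Klf13 had 30.4 and 28.6 FPKM in WT and 58.0 to 71.3 FPKM in the knockouts. Klf9 was the KLF gene that fell on both scales, with 12.5 and 12.5 FPKM in WT and 2.09 to 3.50 FPKM in the knockouts. In all, 5 of 9 KLF genes were called higher and 1 lower in Tnfr2-/-, and 6 and 2 in Tnfr1-/- MDSCs, and 7 higher and 1 lower in each after scaling. All genes gave 13.6% and 14.1% higher and 57.1% and 60.7% lower as deposited. After scaling they gave 21.8% and 23.3% higher and 21% and 22.1% lower.

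Ets1, Tcf7 and Zeb1 were called higher in both knockouts on both scales. Ets1, needed for lymphocyte development (chromosome 9, 32636221 to 32757820), had 7.20 and 8.14 FPKM in WT, 71.4 and 72.5 FPKM in Tnfr1-/-, and 53.6 and 36.4 FPKM in Tnfr2-/- MDSCs, a change of 2.38 (SE 0.19) in Tnfr2-/- and 3.08 (SE 0.19) in Tnfr1-/-. Tcf7, which encodes the T cell factor TCF1 (chromosome 11, 52252371 to 52283014), had 1.30 and 1.36 FPKM in WT, 19.1 and 30.8 FPKM in Tnfr1-/-, and 9.02 and 9.26 FPKM in Tnfr2-/- MDSCs, a change of 2.12 (SE 0.23) and 3.44 (SE 0.23). Zeb1 had 0.186 and 0.183 FPKM in WT, 4.62 and 4.79 FPKM in Tnfr1-/-, and 4.07 and 3.25 FPKM in Tnfr2-/- MDSCs. The B cell markers summed to 46.5 and 46.9 FPKM in WT and to 167 to 382 FPKM in the knockouts, while the 3 of 6 T cell markers in the table went both ways. Cd3g, a chain of the T cell receptor complex, had 5.27 and 7.38 FPKM in WT, 16.3 and 23.5 FPKM in Tnfr1-/- and 5.96 and 8.80 FPKM in Tnfr2-/- MDSCs. Cd3d, another chain, had 3.21 and 3.39 FPKM in WT, 16.4 and 15.2 FPKM in Tnfr1-/- and 13.1 and 6.78 FPKM in Tnfr2-/- MDSCs, and Cd4, the coreceptor of helper T cells, had 24.2 and 25.7 FPKM in WT and 3.86 to 4.89 FPKM in the knockouts. The part of these cells in the rises was not tested.

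Of the other ETS and TCF genes, Ets2 (12.0 and 11.7 FPKM in WT, 30.5 to 37.2 FPKM in the knockouts) and Elf4 (20.01 and 18.8 FPKM, against 28.2 to 32.7 FPKM) were called higher in both knockouts on both scales. Tcf7l2, a WNT effector, fell from 16.1 and 15.1 FPKM in WT to 1.04 to 1.43 FPKM in the knockouts on both scales (-2.89 in Tnfr2-/-, -3.01 in Tnfr1-/-). Tcf3, which encodes the E proteins of B cell development, had 19.2 and 18.9 FPKM in WT and 7.74 to 11.2 FPKM in the knockouts, and Etv3 had 18.6 and 18.3 FPKM in WT and 9.72 to 13.5 FPKM in the knockouts. Both were called lower as deposited only. Of the windows of 50 bases in Etv5, 24.5% also occur in another gene, so its values are uncertain.

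Of the 14 FOX genes, 7 were called higher and 3 lower in Tnfr2-/-, and 6 and 3 in Tnfr1-/- MDSCs, as deposited. After scaling 9 were higher and 1 lower in Tnfr2-/-, and 8 and 1 in Tnfr1-/-. All genes gave 13.6% and 14.1% higher and 57.1% and 60.7% lower as deposited. After scaling they gave 21.8% and 23.3% higher and 21% and 22.1% lower. The FOXO factors, targets of insulin and growth factor signalling, included Foxo1, with 4.18 and 4.07 FPKM in WT, 11.2 and 13.7 FPKM in Tnfr1-/-, and 10.7 and 13.6 FPKM in Tnfr2-/- MDSCs. Foxo3 had 10.6 and 9.97 FPKM in WT and 20.6 to 25.9 FPKM in the knockouts, and Foxp1, a factor of lymphocyte and monocyte development, had 1.34 and 1.32 FPKM in WT and 5.11 to 7.51 FPKM in the knockouts. All 3 were called higher on both scales. Foxp3, the factor of regulatory T cells, had 3.39 and 3.93 FPKM in WT and 0.314 to 0.446 FPKM in the knockouts, and was called lower on both scales (-1.73 in Tnfr2-/-). Foxp3 exons overlap Flicr on the same strand, and 14.7% of its windows of 50 bases also occur in another gene. Of the T cell markers Cd4 was called lower in both knockouts beside it (-2.32 in Tnfr2-/-, -2.22 in Tnfr1-/-), while Cd3d was called higher in both (1.28 and 1.97) and Cd3g in Tnfr1-/- only (1.51, and 0.19 in Tnfr2-/-), and their part was not tested.

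Of the 5 ATF genes, Atf2, Atf6 and Atf7 were called higher and Atf5 lower in both knockouts. Atf6, a sensor of endoplasmic reticulum stress, had 8.76 and 7.90 FPKM in WT, 13.4 and 13.9 FPKM in Tnfr1-/-, and 16.1 and 21.6 FPKM in Tnfr2-/- MDSCs. Atf5, a stress factor downstream of ATF4, had 18.3 and 18.1 FPKM in WT and 3.37 to 6.14 FPKM in the knockouts. Of 18 ATF4 targets of the integrated stress response, 10 were in the table, and 10 were called lower in Tnfr2-/- and 9 in Tnfr1-/-. After scaling 4 were lower in each. All genes gave 57.1% and 60.7% lower and 13.6% and 14.1% higher as deposited, and 21% and 22.1% lower after scaling.

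Of the SOX and HOX genes, Sox4 and Sox7 were called lower in both knockouts on both scales. Sox7, an endothelial factor, had 5.96 and 5.50 FPKM in WT, was listed at 0 in 3 knockout samples and had 0.0269 FPKM in the other, and Sox4 had 3.78 and 4.20 FPKM in WT and 0.222 to 0.384 FPKM in the knockouts. Hoxb7 had 0.226 and 0.227 FPKM in WT and at most 0.0757 FPKM in the knockouts, and was not called. In all, 17 members had a mean under 1 FPKM and 12 were listed at 0 in at least 1 sample.

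The 8 prefix-only genes gave 3 higher and 5 lower in each knockout against WT as deposited, and 3 higher after scaling, with 3 lower in Tnfr2-/- and 2 in Tnfr1-/-. Of 24 binding partners and cofactors of these families, 17 were in the table, with 9 higher and 5 lower in Tnfr2-/- (median 0.62) and 11 higher and 5 lower in Tnfr1-/- MDSCs. After scaling 12 were higher and 2 lower in Tnfr2-/-, and 12 higher and 0 lower in Tnfr1-/-. Lyl1, a partner of E proteins, had 9.54 and 7.08 FPKM in WT and 32.3 to 48.5 FPKM in the knockouts. Ncoa4, a nuclear receptor coactivator also known for ferritin breakdown, had 66.1 and 74.3 FPKM in WT and 10.9 to 20.3 FPKM in the knockouts. Of 23 other bZIP factors 11 were in the table, with 5 called higher and 5 lower in Tnfr2-/- and 5 higher and 4 lower in Tnfr1-/- against WT MDSCs, and 5 and 1, and 6 and 0, after scaling. Of 14 targets of GATA1, 5 were in the table, with 2 higher and 3 lower in each knockout, and 2 lower in each after scaling. Beside these prefix-only and list counts, all genes gave 13.6% and 14.1% higher and 57.1% and 60.7% lower as deposited. After scaling all genes gave 21.8% and 23.3% higher and 21% and 22.1% lower.

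Between the knockouts few members differed. In Tnfr2-/- against Tnfr1-/- MDSCs, 2 of 90 (2.22%) were called, both higher in Tnfr2-/-, against 1.45% of all genes (0.842% higher and 0.61% lower), and 0 were called lower by limma. At an unadjusted limma p-value under 0.05 there were 28 (31.1%), against 24% of all genes. Both shares are over genes already picked by the ANOVA. Cebpa was 0.99 higher on the log2 scale in Tnfr2-/- (SE 0.09, limma adjusted p = 0.0277), with 34.0 and 33.1 FPKM against 15.3 and 17.5 FPKM. Foxq1, a forkhead gene known from epithelia, was 0.64 higher (SE 0.07, adjusted p = 0.0378), with 0.846 and 0.892 FPKM against 0.188 and 0.207 FPKM, and 0.211 and 0.0384 FPKM in WT. Both lie opposite to exons of another gene (Gm45091 and A530084C06Rik), and the strand used for counting is not given in the sources used here.

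These calls depended on the model. Both members were called with median-ratio scaling (0.86 and 0.69), but neither was called with the replicate number as a block (adjusted p = 0.0614 and 0.0707), without the trend in eBayes (0.0514 and 0.0603), or with only these groups in the model (0.153 and 0.073). Without Tnfr2-/- replicate 1, 10 members were called higher and 2 lower, where all genes gave 6.53% and 1.55%. Without Tnfr2-/- replicate 2, or without either Tnfr1-/- sample, 0 were called.

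Members with larger differences between the knockouts that did not pass included Batf3 (1.22, SE 0.25, adjusted p = 0.0746) and Tcf7 (-1.32, SE 0.23, adjusted p = 0.0575). Their groups did not overlap, and across the members the knockout groups did not overlap in 33 with Tnfr2-/- higher (36.7%) and 15 with it lower (16.7%), against 34.9% and 16.1% of all genes. After median-ratio scaling Tcf7 (-1.48, adjusted p = 0.0447) and Nr1d2 (-0.75, adjusted p = 0.0315) were called lower in Tnfr2-/-, beside the 2 called higher, where all genes gave 1.45% lower and 1.09% higher (2.54% in all). Of the T cell markers, Cd3g differed by -1.32 (adjusted p = 0.0743), Cd3d by -0.68 (adjusted p = 0.237) and Cd4 by -0.10 (adjusted p = 0.641) between the knockouts, and their part in the difference of Tcf7 was not tested. With 2 samples in each group, the smallest two-sided p of an exact permutation test is 0.333, and single members were tested by limma alone.

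**Figure D5:**
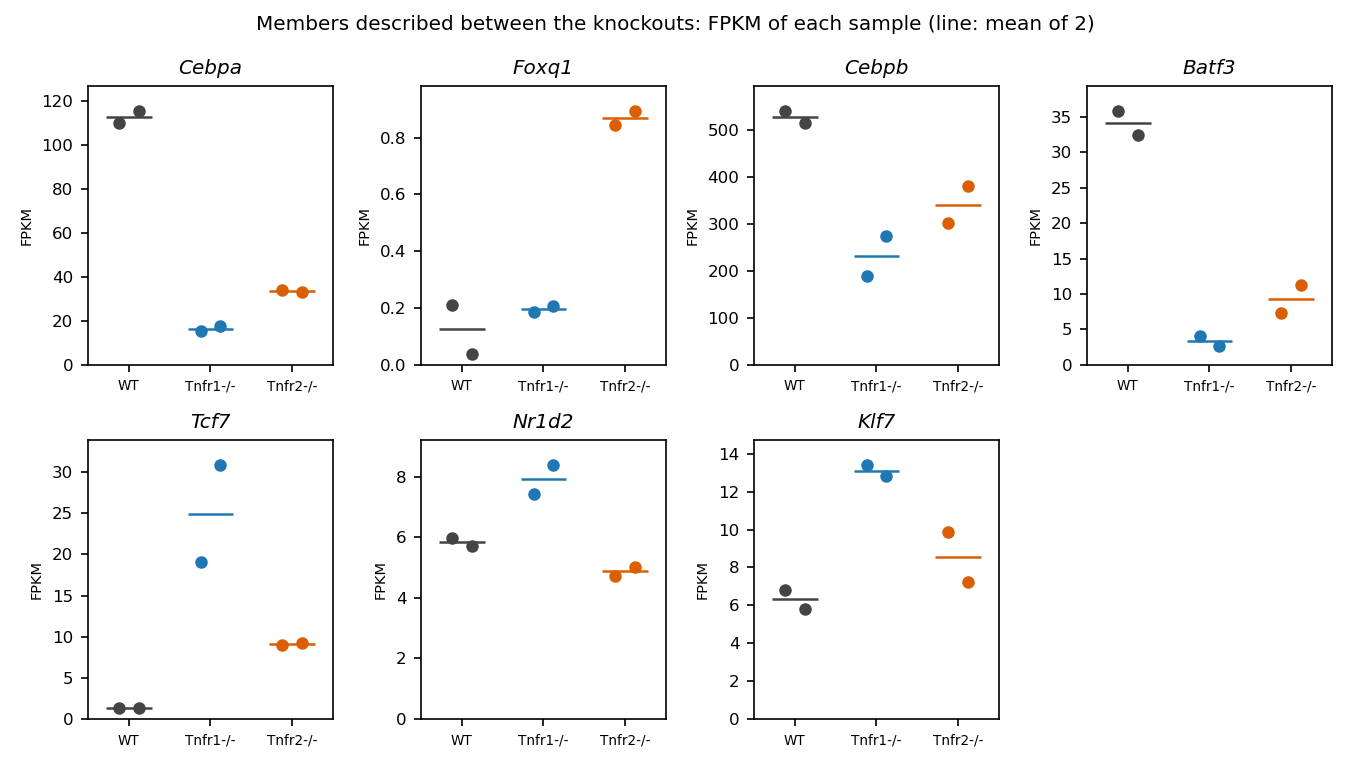
FPKM (linear axis from 0) in each sample of 7 members, with points for samples and lines for the mean of 2. Cebpa, Foxq1, Batf3, Tcf7 and Nr1d2 are described between the knockouts in the text, and the other members shown are not. Cebpa lies at 33.1 and 34.0 FPKM in Tnfr2-/- and at 15.3 and 17.5 FPKM in Tnfr1-/-, and Tcf7 at 9.02 and 9.26 FPKM in Tnfr2-/- and at 19.1 and 30.8 FPKM in Tnfr1-/-.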

How the data were processed

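Splenic MDSCs of WT, Tnfr1-/- and Tnfr2-/- mice were sequenced by the authors with single-end reads of 50 bases, and samples were grouped by the deposited genotype labels. The authors deposited FPKM per gene and sample and a p-value per gene (one-way ANOVA between genotypes), with only genes under 0.05 listed. For all 90 members the deposited p-value equalled that of an ANOVA on the FPKM within 1 percent, and it was not used otherwise. The submitters' processing notes name mm10, FastQC and edgeR, while the aligner and the tool behind the FPKM are not given in the sources used here. The values are not counts, so edgeR was not run.

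All 8191 genes were fitted with limma 3.58.1 in R 4.3.3 on log2(FPKM + 1), in one model of the 6 samples with eBayes and trend, two-sided, with Benjamini-Hochberg adjustment over all genes. Because the ANOVA had picked these genes on the same samples, the adjusted p-values do not keep their stated error rate. Calls therefore describe the listed genes. Genes with an adjusted p under 0.05 and a fold change over 1.5 were called. A fold change on this scale understates that of low genes. Whether the samples of a group came from separate animals beyond the pools is known from the study only. Each limma p-value sets a difference between group means against the spread between these samples. The members and the gene lists were chosen with earlier results of these data known. Genes named are the regulators of a list of 73 myeloid factors (43 in the table), members called between the knockouts, the 5 largest rises and falls against WT, and the 2 largest changes of each target list. Members outside this rule, Mef2b, Klf9, Foxp3, Sox7, Hoxb7, Nr2f6, Etv5 and the ATF genes among them, and the target gene Cd14 were named after their values were seen. The values of 2 members are not reported here by name, and both stay in the counts and medians. Annotation was GENCODE M21 (GRCm38), in which all 90 members matched, and promoters were those of RefSeq, for 71 members. Alternatives were a pseudocount of 0.1, a mean of at least 1 FPKM, median-ratio scaling, quantile normalization, the replicate number as a block, no trend, only the groups compared, no fold threshold, no prefix-only genes, and each sample left out. Python 3.11.15 with pandas 2.3.3, NumPy 2.4.6 and matplotlib 3.10.9 did the rest.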

Additional observations from a re-analysis of the deposited data

How the results depend on the processing

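The counts of members called higher against WT stayed within 26 to 37 under every alternative. The counts called lower fell to 20 (Tnfr2-/-) and 21 (Tnfr1-/-) after median-ratio scaling and to 19 and 22 after quantile normalization, and rose to 44 and 47 with a pseudocount of 0.1 and to 48 and 49 with no fold threshold. Shares of all genes are given above for the deposited values, median-ratio scaling and the fit without Tnfr2-/- replicate 1 only. Counts under the other settings describe the members alone and cannot be set against all genes. The members' medians against WT moved to -0.55 and -0.77 with a pseudocount of 0.1 and to -0.64 and -0.73 with a mean of at least 1 FPKM, and turned to 0.23 and 0.12 after median-ratio scaling and to 0.14 and 0.11 after quantile normalization. Both scalings are built to even out the lower totals of the knockouts. Between the knockouts the count called higher was 0 without trend and 0 with only the groups compared, and the count called lower was 2 with a mean of at least 1 FPKM, 2 after median-ratio scaling and 2 after quantile normalization. With each sample left out these counts ran from 0 to 10 higher (10 without Tnfr2-/- replicate 1, 1 without either WT sample) and from 0 to 2 lower. A lone sample is then assumed to vary like the other groups.

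Replicate numbers did not pair the samples (correlations of deviations 0.022, 0.03 and 0.046). Blocking on the replicate number, the count called higher between the knockouts was 0, and no other count of calls changed.

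Of the members described by their values and called on either scale, with median-ratio scaling the direction turned in Tnfr2-/- against WT for Cebpb (0.36), Spi1 (0.08), Etv3 (0.29), Batf (0.02), Tfe3 (0.23), Nr1h2 (0.23) and Nr1d2 (0.60), and in Tnfr1-/- against WT for Spi1 (0.05), Etv3 (0.36), Maf (0.09), Tfe3 (0.19), Tcf3 (0.21), Nr1h2 (0.38) and Ppard (0.40). Maf (0.50) and Ppard (0.46) also turned in Tnfr2-/-, called on neither scale. With quantile normalization a called change turned in Tnfr2-/- for Cebpb (0.51), Spi1 (0.20), Etv3 (0.09), Tfe3 (0.04) and Nr1h2 (0.07), and in Tnfr1-/- for Cebpb (0.10), Spi1 (0.26), Etv3 (0.14), Tfe3 (0.01), Nr1h2 (0.24), Nr1d1 (0.05) and Ppard (0.20). Without Tnfr2-/- replicate 1, Bhlhe41 turned from -0.22 to 0.85 between the knockouts, within leave-one-out values from -1.30 to 0.85. Other causes were not tested. Library depth is unknown, so counting error could not be given for any member.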
